A study of Mus musculus with 2 samples.

Results

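The Mir130 and Mir301 seed family was quantified in small-RNA libraries from facial prominence tissue of mouse embryos. The family here comprises 4 microRNA genes, Mir130a, Mir130b, Mir301 and Mir301b, of the 1973 microRNA loci in the deposited tables. They were chosen by name and not by a rule on their values, though earlier results of these data were known. There was 1 group of 2 libraries, made from total RNA of B6NCrl embryos at 11.5 days, size-selected for RNA below 30 bases. Replicate 1 was a pool of tissue from 109 embryos and replicate 2 a pool from 88, both of mixed sex. The labels number them as separate biological replicates but give them the same donor entry, and name no treatment or mutation. All comparisons are therefore between loci in the same libraries or between the 2 pools, and no test between conditions exists.

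A microRNA gene is transcribed into a hairpin from which a short mature strand is cut. The mature strand guides silencing complexes to messenger RNAs, mainly through its seed, bases 2 to 8 from the 5′ end, so microRNAs with the same seed share many predicted targets. In human endothelial cells miR-130a is known to repress the antiangiogenic homeobox genes MEOX2 and HOXA5, and the family is known to act on PPARG in pulmonary vascular cells. The facial prominences are outgrowths of largely neural-crest-derived mesenchyme under an epithelium, supplied by growing vessels, from which the face forms.

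The mature 3p strands listed by RefSeq (GRCm38.p6) for 3 of the members are shown with the seed in capitals, 5′ to 3′, because the shared seed defines the family and the letters after it tell the members apart.
mmu-miR-130a-3p: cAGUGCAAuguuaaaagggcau
mmu-miR-130b-3p: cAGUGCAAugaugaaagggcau
mmu-miR-301a-3p: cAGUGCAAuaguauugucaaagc
All 3 have the seed AGUGCAA. Aligned without gaps and counted from base 1 at the 5′ end, miR-130a-3p and miR-130b-3p were identical at 20 of 22 bases, with the substitutions U11A and A13G. Mir301 encodes miR-301a, whose 3p strand matched miR-130a-3p at 12 of 22 bases and miR-130b-3p at 11 of 22. The 3p strands compared here from the Mir130 and Mir301 branches thus share the seed and differ only after it.

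The 5p strands of the 2 Mir301 genes are shown because RefSeq lists one for each gene of the Mir301 branch.
mmu-miR-301a-5p: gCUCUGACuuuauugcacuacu
mmu-miR-301b-5p: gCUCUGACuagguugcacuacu
They were identical at 19 of 22 bases, differing by U10A, U11G and A12G, and share the seed CUCUGAC, again in capitals. The 5p strands of Mir130a and Mir130b have the seeds CUCUUUU and CUCUUUC and were identical at 15 of 22 bases.

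The 4 hairpins are shown whole, also 5′ to 3′, with the letters AGUGCAA in capitals, because the counts are per hairpin locus and cannot be divided between the 5p and 3p strands.
Mir130a: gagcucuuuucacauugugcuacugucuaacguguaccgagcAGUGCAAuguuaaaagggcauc
Mir130b: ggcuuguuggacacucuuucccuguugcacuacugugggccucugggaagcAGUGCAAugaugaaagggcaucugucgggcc
Mir301: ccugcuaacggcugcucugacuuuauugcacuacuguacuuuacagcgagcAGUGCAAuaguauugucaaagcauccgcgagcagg
Mir301b: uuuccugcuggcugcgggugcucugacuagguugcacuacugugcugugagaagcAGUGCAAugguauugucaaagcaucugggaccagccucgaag
Each hairpin held AGUGCAA exactly 1 time, on the transcribed strand, as did 12 of the 1005 hairpins in the RefSeq table (1.19%). The complementary letters UUGCACU, with which the seed can pair, lay upstream of the seed in Mir130b, Mir301 and Mir301b but were not in Mir130a, and 14 of the 1005 hairpins (1.39%) held them. In the fold that RNAfold predicted for Mir130a, every base of AGUGCAA was nonetheless paired, with the upstream letters uugugcu. Absence of the exact complement thus does not mean that the seed of Mir130a lacks a partner. Mir130a has the shortest hairpin of the 4, at 64 bases, against 82 for Mir130b, 86 for Mir301 and 97 for Mir301b. Predicted folding energies (RNAfold) were -22.1 kcal per mol for Mir130a, -30.1 for Mir130b, -37 for Mir301 and -39.1 for Mir301b. Per base of hairpin they were -0.345, -0.367, -0.430 and -0.403, so Mir301 rather than Mir301b had the lowest.

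The members lie at 3 places in the mm10 genome. Mir130a (ENSMUSG00000065484.1) is on the minus strand of chromosome 2, chr2:84741115-84741178, between annotated genes: its nearest protein-coding neighbours are Gm19426, 990 bases away on the same strand, and Ypel4, 2459 bases away on the other. Mir130b (ENSMUSG00000065572.1, chr16:17124061-17124142) and Mir301b (ENSMUSG00000076288.1, chr16:17124400-17124496) lie on the minus strand of chromosome 16 with 257 bases between them. Both are in intron 1 of all 3 annotated transcripts of the protein-coding gene 2610318N02Rik that span them, on the same strand as that gene, with Mir301b first in the direction of transcription. Mir301 (ENSMUSG00000065589.1, chr11:87113004-87113089, plus strand) lies in intron 1 of both spanning transcripts of Ska2, which encodes a subunit of the spindle and kinetochore-associated complex. No other annotated microRNA lay within 10 kb of a member on its strand.

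**Figure D1:**
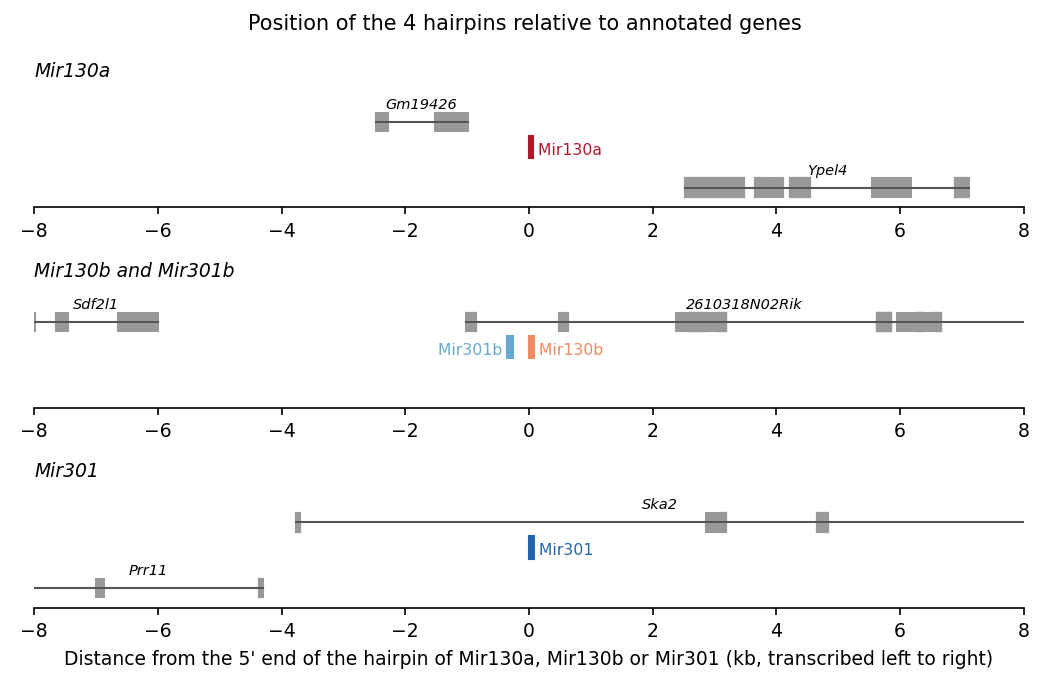
Position of the 4 hairpins (coloured boxes) relative to annotated genes, as distance in kb from the 5′ end of the Mir130a, Mir130b or Mir301 hairpin, drawn so that the microRNA is transcribed from left to right. Grey boxes are exons, genes above the microRNA lie on its strand and genes beneath it on the other. Mir130b and Mir301b share intron 1 of 2610318N02Rik with 257 bases between them, Mir301 lies in intron 1 of Ska2, and Mir130a lies in no annotated gene.

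Sense counts over all loci summed to 1941745 in the first library and 2319881 in the other. Levels are sense counts scaled to a library total of 1e+06 (CPM), and intervals are exact (Clopper-Pearson) 95% intervals that cover counting error only. Defining microRNAs of the labelled tissue were present: all 7 listed mesenchymal loci and all 7 epithelial loci reached 10 counts in both libraries. Reaching 10 counts did not set these lists apart. All measured erythroid (3), leukocyte (3) and liver (1) loci reached it too, as did 5 of 8 measured striated muscle and 4 of 8 measured neural loci. The summed shares were 5.25% and 5.58% for mesenchyme and 3.31% and 2.95% for epithelium in replicates 1 and 2. The endothelial Mir126a took 3.90% and 4.04%. Lists for neural, striated muscle, erythroid, leukocyte and liver cells took 0.158% or less each, with Mir124a-3 (neural), Mir133a-1 and Mir133a-2 (muscle) at 0 in both. Reads placed at several positions are outside the counts, so shares of lists with numbered copies, such as the neural, muscle and mesenchymal lists, may be incomplete. The shares are therefore no measure of the cell composition of the tissue. A 0 at such a copy does not show that the microRNA was absent.

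All 4 members were detected, with at least 10 counts in both libraries, as were 351 of the 1973 loci (17.8%). Together they took 4.64% of the sense counts in replicate 1 and 5.06% in replicate 2, or 4.85% ± 0.294 (SD, n = 2). Their levels spread over 2 orders of magnitude and had the same order in both pools: Mir130a, Mir130b, Mir301, Mir301b. In bulk tissue a low level from fewer expressing cells and one from less RNA per cell cannot be told apart. Reads placed at several positions, 22.7% and 20.5% of all reads in replicates 1 and 2, are outside these shares and the ranks below. Loci with near-identical copies may therefore rank too low.

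Mir130a, the member known from vascular endothelium, had 34623 CPM in replicate 1 (67229 counts; 34366 to 34881) and 37643 CPM in replicate 2 (87328 counts; 37399 to 37889). It was the fifth most abundant locus by the mean, 36133 ± 2136 CPM (SD, n = 2), and ranked 6 in replicate 1 and 5 in replicate 2. It lay just under the endothelial Mir126a, with a log2 ratio of Mir130a over Mir126a of -0.17 in replicate 1 and -0.10 in replicate 2. The smaller of these did not exceed the difference of Mir130a between the pools (0.12), so the order of this pair was not resolved beyond the replicate spread. The part that endothelial cells have in the Mir130a level was not tested.

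Mir130b, whose 3p strand is the closest relative of miR-130a-3p, had 9005 CPM in replicate 1 (17485 counts; 8872 to 9139) and 10132 CPM in replicate 2 (23505 counts; 10004 to 10262). Its mean of 9568 ± 797 CPM placed it 25th among all loci. Its level was thus far under that of Mir130a in either pool: Mir130a exceeded it 3.84-fold in replicate 1 (interval 3.78 to 3.91) and 3.72-fold in replicate 2 (3.66 to 3.77), a log2 ratio of 1.92 ± 0.03 (SD, n = 2).

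Mir301, the Ska2-hosted member, had 2536 CPM in replicate 1 (4925 counts; 2466 to 2608) and 2579 CPM in replicate 2 (5983 counts; 2514 to 2645). The mean was 2558 ± 30.1 CPM, rank 71, and the intervals of the 2 pools overlapped. Mir130b exceeded it 3.55-fold in replicate 1 and 3.93-fold in replicate 2 (log2 ratio 1.90 ± 0.10), and Mir130a exceeded it 13.7-fold and 14.6-fold.

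Mir301b, the other member of the chromosome 16 pair, was the lowest, with 248 CPM in replicate 1 (482 counts; 227 to 271) and 215 CPM in replicate 2 (499 counts; 197 to 235). Its mean of 232 ± 23.4 CPM, rank 172, was still above the median of the 351 detected loci, 192 CPM. Mir301 exceeded it 10.2-fold in replicate 1 and 11.99-fold in replicate 2 (log2 ratio 3.47 ± 0.16), and Mir130a exceeded it 139-fold and 175-fold.

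**Figure D2:**
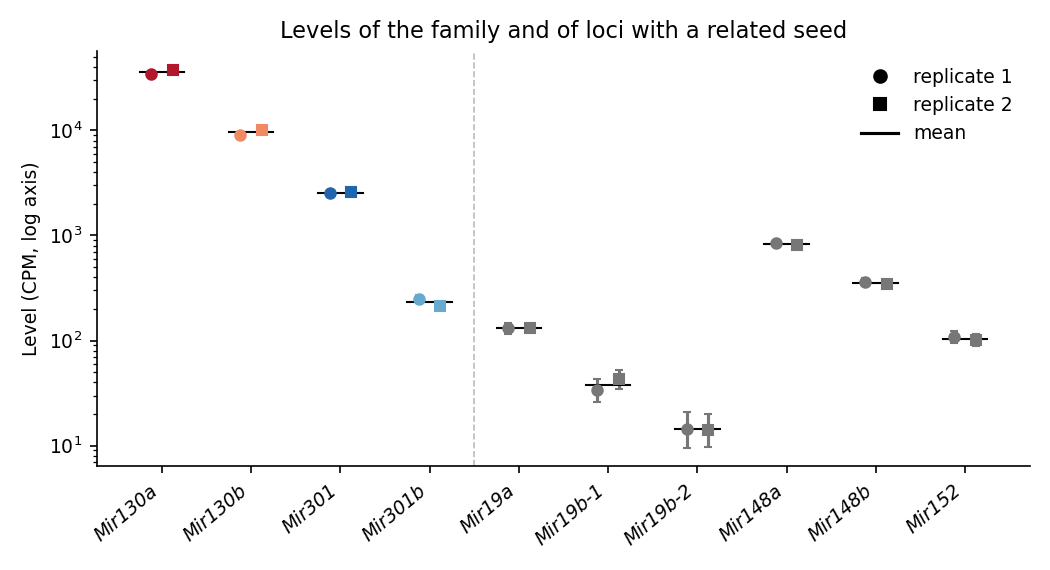
Level of each member (coloured) and of the loci with a related seed (grey) in replicate 1 (circles) and replicate 2 (squares), in CPM on a log axis, with the mean of both as a line and the exact 95% counting interval as error bars. The 4 members step down from 36133 CPM for Mir130a to 232 CPM for Mir301b, and replicate differences are small beside the steps.

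Loci were taken to differ beyond the replicate spread where, in each library, their log2 ratio was greater than the change of each locus between the pools. All 6 pairs of members met this, including each pair of neighbours in the order of levels. The largest replicate difference among the members was 0.21 on the log2 scale (Mir301b), and the smallest difference between members was 1.83 (Mir130b over Mir301 in replicate 1).

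The adjacent genes of chromosome 16 were far apart in level. Mir130b exceeded Mir301b 36.3-fold in replicate 1 (interval 33.1 to 39.8) and 47.1-fold in replicate 2 (43.1 to 51.6), a log2 ratio of 5.37 ± 0.27 (SD, n = 2), and both lie in intron 1 of 2610318N02Rik on the same strand. The part that ligation or amplification of each sequence has in such differences was not tested. The host transcripts were not measured.

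**Figure D3:**
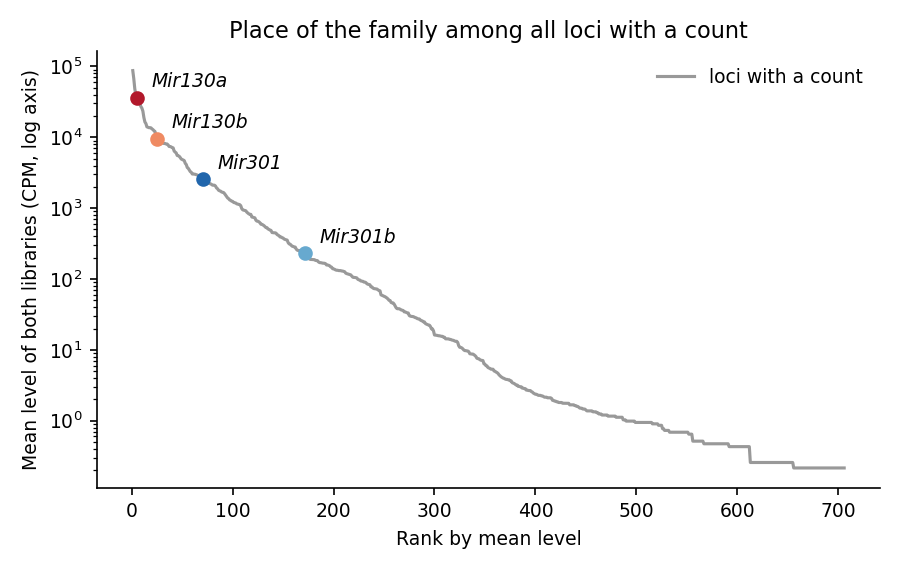
Mean level of both libraries (CPM, log axis) against rank for all named loci with a count (grey line), with the 4 members as coloured points. Mir130a lies at rank 5, Mir130b at 25, Mir301 at 71 and Mir301b at 172.

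Within the family, Mir130a made up 74.6% of the counts in replicate 1 (interval 74.3 to 74.9) and 74.4% in replicate 2 (74.2 to 74.7). Mir130b made up 19.4% and 20.04%, Mir301 5.46% and 5.10%, and Mir301b 0.535% and 0.425%. The counting intervals of the pools overlapped for Mir130a and did not for the other 3, of which Mir130b had the larger share in replicate 2 and Mir301 and Mir301b in replicate 1. Both genes of the Mir130 branch lay above both genes of the Mir301 branch in each library.

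The family's share was set beside those of 3 other multi-locus families. The Mir130 and Mir301 genes took 4.85% ± 0.294, against 3.60% ± 0.135 for the 6 Mir30 loci, 3.38% ± 0.311 for 10 measured let-7 loci and 1.91% ± 0.0705 for the 3 Mir26 loci (SD, n = 2). In both libraries the Mir130 and Mir301 share was above the other 3. A dominant locus was common to several of them: Mir130a held 74.5% ± 0.113 of its family, against 71.9% ± 0.664 for Mir30e, 99.7% ± 0.00992 for Mir26b and 48.7% ± 2.06 for Mirlet7g. Numbered copies such as Mir26a-1 and Mir26a-2 or Mirlet7a-1 and Mirlet7a-2 encode near-identical strands, and reads placed at several positions are outside the counts, so those families' shares are incomplete and their leading loci may appear too dominant.

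**Figure D4:**
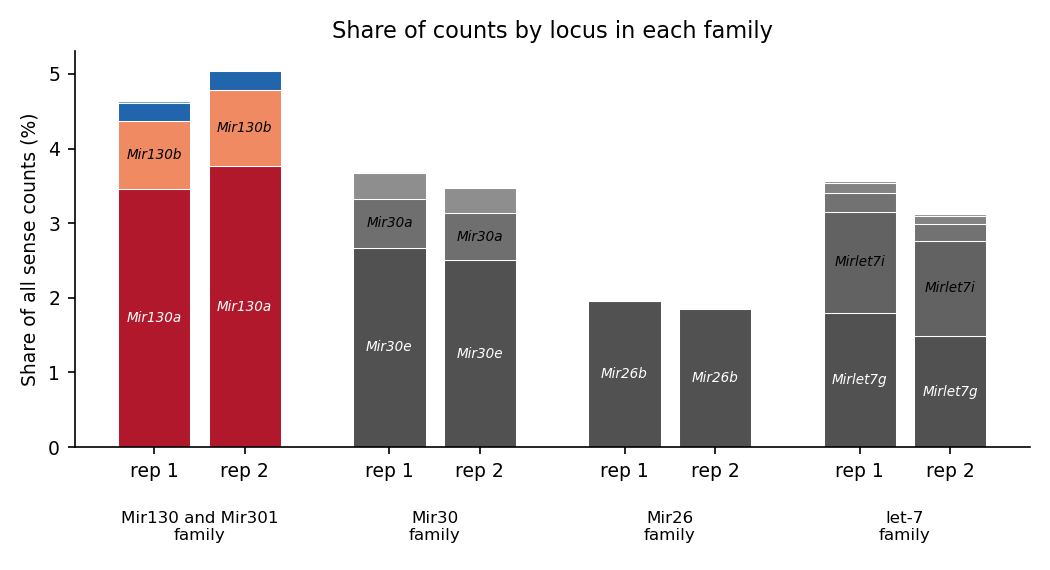
Share of all sense counts in percent taken by each locus of the Mir130 and Mir301 family (coloured, with Mir130a at the base, then Mir130b, Mir301 and a thin line for Mir301b) and of the Mir30, Mir26 and let-7 families (grey), with 1 bar for each replicate. The family reaches 4.64% and 5.06%, and Mir130a alone 3.46% and 3.76%.

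Sequence shared with other loci bears on the counts, since reads placed at several positions are outside them. The longest run of bases that a member's hairpin shared with any other hairpin was 17 for Mir130a (with Mir6389) and 16 for each of Mir130b, Mir301 and Mir301b. The 7 listed mature strands of the members each occurred in their own gene only among 141767 annotated transcripts, on either strand. The 3p strand of Mir301b is not among the 7 and was not searched. Only exact matches were sought, so near-identical sequence is not covered. Introns and the space between genes were not searched. The opposite strand held 0 counts at all 4 members in both libraries, for which a limit of 3 counts, set for zeros apart from the two-sided intervals above, corresponds to 1.545 CPM in replicate 1 and, in replicate 2, 1.29 CPM. Of the 351 detected loci, 320 (91.2%) had 0 opposite-strand counts too.

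RefSeq lists 7 mature strands with the seed AGUGCAA (0.403% of 1738 listed strands). Beside those of the members there are 4, of which Mir721 was not analysed here. The other 3 are shown because they carry the seed and were in the count tables.
mmu-miR-130c: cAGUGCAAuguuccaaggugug
mmu-miR-6389: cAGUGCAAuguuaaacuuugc
mmu-miR-6341: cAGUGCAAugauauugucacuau
Mir130c (chromosome 9), Mir6389 (chromosome 7) and Mir6341 (chromosome 1) had 0 counts in both libraries, for which the upper bounds of the exact two-sided interval are 1.90 CPM in replicate 1 and, in replicate 2, 1.59 CPM. Of the 6 loci with such a strand in both RefSeq and the count tables, Mir130a, Mir130b and Mir301 had counts.

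Loci with a related but different seed were lower than the 3 upper members. The 3p strands of Mir19a, Mir19b-1 and Mir19b-2, which belong to growth-associated clusters, have the seed GUGCAAA and share GUGCAA with the family. Those of Mir148a, Mir148b and Mir152 have the seed CAGUGCA, which contains AGUGCA shifted by 1 base. All 6 loci were detected, from 14.3 ± 0.138 CPM for Mir19b-2 to 830 ± 21.6 CPM for Mir148a (SD, n = 2). Summed, the Mir148 and Mir152 loci took 0.129% ± 0.00409 and the Mir19 loci 0.0184% ± 0.000811. Mir301 exceeded Mir148a 2.999-fold in replicate 1 and 3.16-fold in replicate 2, and exceeded Mir19a 19.5-fold and 19.4-fold, both beyond the replicate spread. Mir301b, in contrast, lay under Mir148a and Mir148b (354 ± 14.2 CPM) and above Mir19a (132 ± 1.75 CPM) and Mir152 (105 ± 5.15 CPM). The 2 Mir19b genes encode the same 3p strand, so their counts are incomplete.

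Between the pools none of the 4 members differed by over 2-fold, where 5 of the 257 loci averaging 100 counts or more did (1.95%). For 4 loci, a count of 0 is near that background. Log2 ratios of replicate 1 over replicate 2 were -0.12 for Mir130a (interval -0.14 to -0.11), -0.17 for Mir130b (-0.20 to -0.14), -0.02 for Mir301 (-0.08 to 0.03) and 0.21 for Mir301b (0.02 to 0.39). Mir130a and Mir130b were higher in replicate 2 and Mir301b in replicate 1, each by more than counting error, while the interval of Mir301 included 0. The neighbours Mir130b and Mir301b therefore had ratios of opposite sign. The median absolute log2 ratio was 0.15 over the 4 members and 0.14 over the 257 loci, All 4 lay within 0.25, as did 195 of the 257 (75.9%). The summed shares of the striated muscle list (0.0628% in replicate 1 and 0.149% in replicate 2), of the erythroid list (0.0280% and 0.0614%) and of the liver locus Mir122 (0.00160% and 0.00440%) differed more between the pools, and their part in the members' ratios was not tested.

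**Figure D5:**
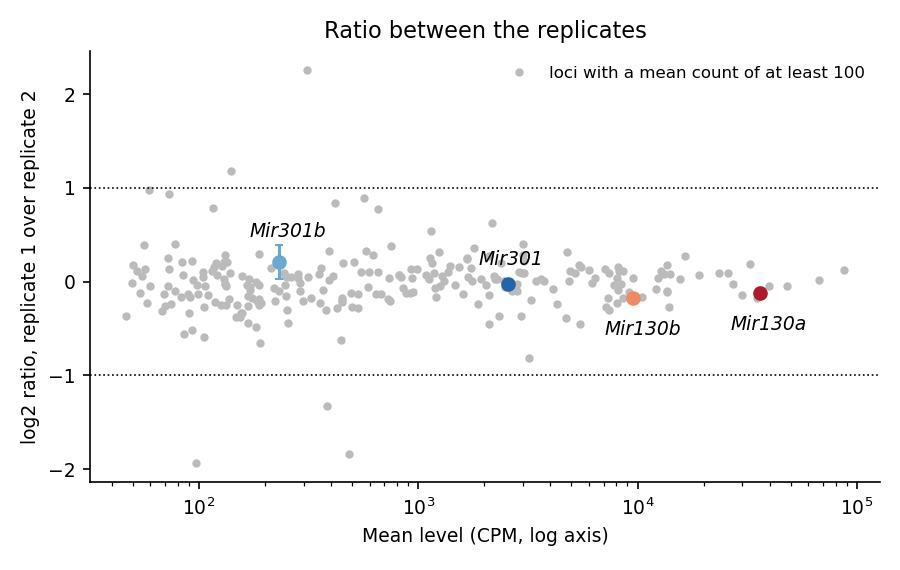
Log2 ratio of replicate 1 over replicate 2 against the mean level (CPM, log axis) for the 257 loci averaging 100 counts or more (grey), with the 4 members in colour and their 95% counting intervals. Dotted lines mark 2-fold. The members lie between -0.17 (Mir130b) and 0.21 (Mir301b), inside the lines.

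The loci closest to each member in level were found by the Euclidean distance between log2(CPM + 1) values in both libraries, a description over 2 libraries only. For Mir130a these were Mir99b (35253 ± 3050 CPM, distance 0.07), Mir126a (39731 ± 981 CPM, 0.20) and Mir322 (32601 ± 3034 CPM, 0.31). For Mir130b they were Mir298 (9105 ± 484 CPM, distance 0.11), Mir23a (9489 ± 195 CPM, 0.15) and Mir411 (10487 ± 853 CPM, 0.19). Mir301 lay closest to Mir27b, Mir106a and Mir28a, at 2485 ± 64.5, 2473 ± 11.1 and 2673 ± 134 CPM. Mir301b lay closest to Mir221, Mir410 and Mirlet7f-2, at 245 ± 11.5, 213 ± 15.2 and 248 ± 6.89 CPM.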

How the data were processed

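Tables deposited by the authors hold unnormalized read counts for each microRNA gene, made on the mm10 assembly with the GENCODE M4 annotation, per the text files deposited with the tables. No aligner or counting program is given in the sources used here. Of the 3 count columns, the sense column was used. It held 97.0% and 96.8% of the stranded counts in replicates 1 and 2. The 4 lines without a gene stayed out of the totals. They were 30.9% and 38.6% unmapped, 22.7% and 20.5% placed at several positions, and 5.51% and 6.75% outside a locus, of 4755968 and 6781929 reads. Counts lack molecular identifiers in the labels, so intervals cover counting error only.

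Symbols and positions came from GENCODE M21 (GRCm38), to which 1894 of 1973 identifiers matched without version. The 79 others held 4 counts. Sequences came from RefSeq (GRCm38.p6). CPM, ratios and intervals were computed with Python 3.11.15, numpy 2.4.6, pandas 2.3.3 and scipy 1.17.1, figures with matplotlib 3.10.9 and folding with RNAfold 2.7.2. Scaling alternatives used edgeR 4.0.16 and DESeq2 1.42.0 under R 4.3.3. With 1 group no differential test was run. The edgeR common biological coefficient of variation, over 363 loci averaging 10 counts or more, was 16.7%.

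The members and lists were chosen with earlier results of these data known. The text names the members, loci with the same or a related seed, 3 comparison families and the 3 loci nearest in level to each member. Mir126a was set against Mir130a, and Mir301 against Mir148a and Mir19a, after their values were seen.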

Additional observations from a re-analysis of the deposited data

How the results depend on the processing

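Over 15 results, 60 of 68 alternative values kept their direction and side of the limit, or moved by less than the replicate spread. Part of the 60 was fixed in advance. Leaving out 1 of 2 libraries cannot move a mean by more than their SD. The members had 0 opposite-strand counts, so the column irrespective of strand could not change their ratios to each other or the Mir130a share of the family. Scaled to all reads of a library, lines without a gene included, the levels were 13506 per 1e+06 reads for Mir130a, 3571 for Mir130b, 959 for Mir301 and 87.5 for Mir301b, because the divisor is larger. With the column irrespective of strand, Mir301 was at 2477 CPM, a shift over its small replicate SD. The number of loci past 2-fold between the pools was 13 with a mean count of at least 20, 3 with at least 500 and 90 with no filter, against 5 as reported. The ratios of levels per base of hairpin were added after seeing the data and kept their direction. This too was fixed in advance, because the members with lower levels had longer hairpins. All 4 members had at least 10 counts in both libraries, so a detection limit of 1 count could not change their number. No member passed 2-fold under any scaling. No paired analysis was possible because there was only 1 group. With 2 libraries, an SD rests on a single difference, and no two-sided exact test can go below p = 0.5.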

Other observations

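The letters of the family's seed also occurred in hairpins whose listed mature strands have another seed. Of the 12 hairpins with AGUGCAA, such loci outside the family were Mir362 (334 counts in replicate 1 and 476 in replicate 2), Mir5128 (3 and 2 counts), Mir759 and Mir882 (both 0 in both). Only Mir759 among these also held the complementary letters UUGCACU, as did Mir130b, Mir301 and Mir301b, which made 4 hairpins of 1005 with both (0.398%). The complementary letters alone were found in, among others, the hairpins of Mir25 (1712 and 2219 counts), Mir92-1 (13377 and 18010 counts) and Mir92b (3960 and 6089 counts), genes of another seed family. These loci were chosen by their hairpin letters, and a match is a description, not a measured target or pairing.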
